A study of Homo sapiens with 4 samples.

Results

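RUNX1, RUNX2 and RUNX3 encode the DNA-binding subunits of core binding factor, and CBFB encodes the partner subunit that they share. These 4 genes were taken as every probe set whose platform gene symbols list one of them, which gave 4 probe sets of the 53617 in the deposited table, 1 for each gene. All 4 genes passed the filter on dim genes described below and so lie among the 13243 genes examined. The probe set of RUNX1 (16925365) is also assigned to LOC100506403, a long non-coding RNA locus on the same chromosome that does not overlap RUNX1 in the RefSeq gene table, so RUNX1 cannot be read from it alone. The RUNX2 (17009289), RUNX3 (16683624) and CBFB (16819952) probe sets each list 1 gene.

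RUNX proteins bind DNA through the Runt domain, recognise the core sequence TGTGGT, and bind it more tightly when paired with the CBFB protein, which does not touch DNA itself. RUNX1 is required for the emergence of blood stem cells and for megakaryocyte and lymphoid maturation, and both RUNX1 and CBFB are recurrent targets of leukaemia translocations. RUNX2 is best known as the regulator of bone formation, and RUNX3 acts in cytotoxic T cells, natural killer cells and myeloid cells. Each RUNX gene has a distal and a proximal promoter that give proteins with different amino ends.

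The samples were 4 RNA preparations of MV4-11, an established human cell line from an acute leukaemia of monocytic type, carrying a KMT2A-AFF1 fusion, whose cells were given short hairpin RNAs and then 3 µM doxycycline for 24 h. The arrays labelled profound 1, profound 2 and moderate stand, by their titles, for 3 hairpins against RUNX1 graded by knockdown efficacy. The array labelled control stands for a hairpin against luciferase, and the control cells received doxycycline too. The study asks how expression differs between depths of RUNX1 knockdown. Each hairpin was measured on 1 whole-transcript array, so no difference has a replicate check and no p-value is given, and precision is limited by the small number of arrays. What doxycycline controlled in these cells, and whether the arrays come from cells of separate transductions, is not given in the sources used here.

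Values are log2 RMA signals, that is, background-corrected, quantile-normalised and summarised per probe set, and the medians of the 4 arrays lay between 3.07 and 3.09. A gene was examined if it exceeded the median of the whole table (3.08) on at least 1 array. As a yardstick for a difference, the spread of the same pair of arrays, a robust SD from the median absolute deviation, was taken over the genes of the same level class, the genes having been cut into 6 classes by their mean signal. This yardstick holds measurement noise and real differences together. A gene was counted as higher or lower at a difference of at least 1.5-fold, or 0.58 log2 units. All 7 measured markers of a monocytic leukaemia line were above the table median, at 6.25 to 11.57. The 20 measured markers of 6 other lineages read between 1.51 and 5.72. Of these, 9 passed the table median on any array, among them all 3 measured megakaryocyte markers. Of all 18640 named genes 13243 passed it on any array, so passing it alone says little about lineage.

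Windows of RefSeq promoter sequence (GRCh38.p14, 250 bases before to 50 bases after an annotated start) were available for RUNX1, RUNX2 and RUNX3. The distal windows of RUNX3 and RUNX2 are shown because both carry the core RUNX recognition sequence in a tandem pair. Here 30 bases around the pair are printed from each gene's coding strand, 5′ to 3′, and capitals mark ACCACA, which is TGTGGT read on the opposite strand.
RUNX3: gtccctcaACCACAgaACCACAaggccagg
RUNX2: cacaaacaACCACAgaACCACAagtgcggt
The RUNX3 stretch is chr1:24965120-24965149 on the minus strand, with the pair at bases -131 to -118 from the start. The RUNX2 stretch is chr6:45328338-45328367 on the plus strand, with the pair at bases 17 to 30 after the start. Both share an unbroken run of 18 bases, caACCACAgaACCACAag. The 250 bases before the distal RUNX3 start (chr1:24965011-24965260, minus strand) give the context of its pair.
RUNX3 distal: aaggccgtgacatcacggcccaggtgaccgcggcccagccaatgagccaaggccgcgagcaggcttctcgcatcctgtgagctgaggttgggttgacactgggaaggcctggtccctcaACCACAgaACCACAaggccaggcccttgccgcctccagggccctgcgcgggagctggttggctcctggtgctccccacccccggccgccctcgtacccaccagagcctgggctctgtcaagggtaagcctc

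Of all 35116 promoter windows, 13.1% held TGTGGT on either strand at least once. The tandem pair, searched on both strands as 2 copies of ACCACA with any 2 bases between them, occurred in 4 windows, or 0.0114%, and each copy counts as a TGTGGT match as well. Those 4 windows belong to RUNX3, RUNX2, OR52N2 and LOC105369321, and only RUNX3 and RUNX2 were among the genes examined. The distal RUNX2 window held 4 matches to TGTGGT, a count of 4 or more being found in 5 windows. The proximal windows of RUNX2 and RUNX3 and the RUNX1 window held no match to these letters. No window of the distal RUNX1 promoter was available, so that promoter was not searched. A match in sequence is a description and no evidence of binding in these cells.

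RUNX1, a DNA-binding factor gene, is the target named in the title of every array except control. The free-text descriptions differ, naming RUNX2 for profound 1 and RUNX3 for profound 2, as set out below. The shared probe set of RUNX1 read 4.07 in the array labelled profound 1, 4.04 in profound 2 and 4.33 in moderate, against 4.27 in control. Both arrays labelled profound were thus below the other 2 arrays, and the array labelled moderate was the highest. That order of both pairs was found in 19.8% of the genes examined, and a gap between them at least as wide as that of RUNX1 (0.19 log2 units) in 3.22%. These are -0.19, -0.22 and 0.06 log2 units from control, or signals 1.14-fold lower, 1.17-fold lower and 1.04-fold higher. They compare with spreads of 0.28, 0.26 and 0.23 for genes of this level, and none exceeded its spread. In profound 1, 23.9% of the genes examined were at least as far below control, in profound 2 13.7%, and in both together 6.70%. With the array labelled moderate as the reference, RUNX1 was at -0.25 log2 units in profound 1 (spread 0.28) and -0.28 in profound 2 (spread 0.28). The latter is 1.02 times its spread, and 11.3% of the genes examined were at least as far below moderate in profound 2. The signal therefore does not show the labelled grades, so the arrays are called by their labels and directions are between labels.

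RUNX3, the family member with the clearest difference, read 7.75 in the array labelled profound 1, 7.74 in profound 2 and 8.28 in moderate, against 8.17 in control. The arrays fall into a lower pair, which differ by 0.01 log2 units, and a higher pair, with 0.42 log2 units between the pairs. A gap this wide in this direction was found for 56 of the 13243 genes, or 0.423%. The differences from control were -0.42 in profound 1 and -0.43 in profound 2, or signals 1.34-fold and 1.35-fold lower, and 0.11 in moderate. These are 1.88 spreads in profound 1 (spread 0.22), 3.43 spreads in profound 2 (spread 0.13) and 1.02 spreads in moderate (spread 0.11). Of all genes examined, 8.55% were at least as far below control in profound 1 and 3.19% in profound 2. Among genes of this level alone the share was 10.0% in profound 1 but 0.498% in profound 2, where genes of this level varied less. In RNA of whole cultures, a lower signal in every cell and fewer cells with the transcript cannot be told apart.

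**Figure D1:**
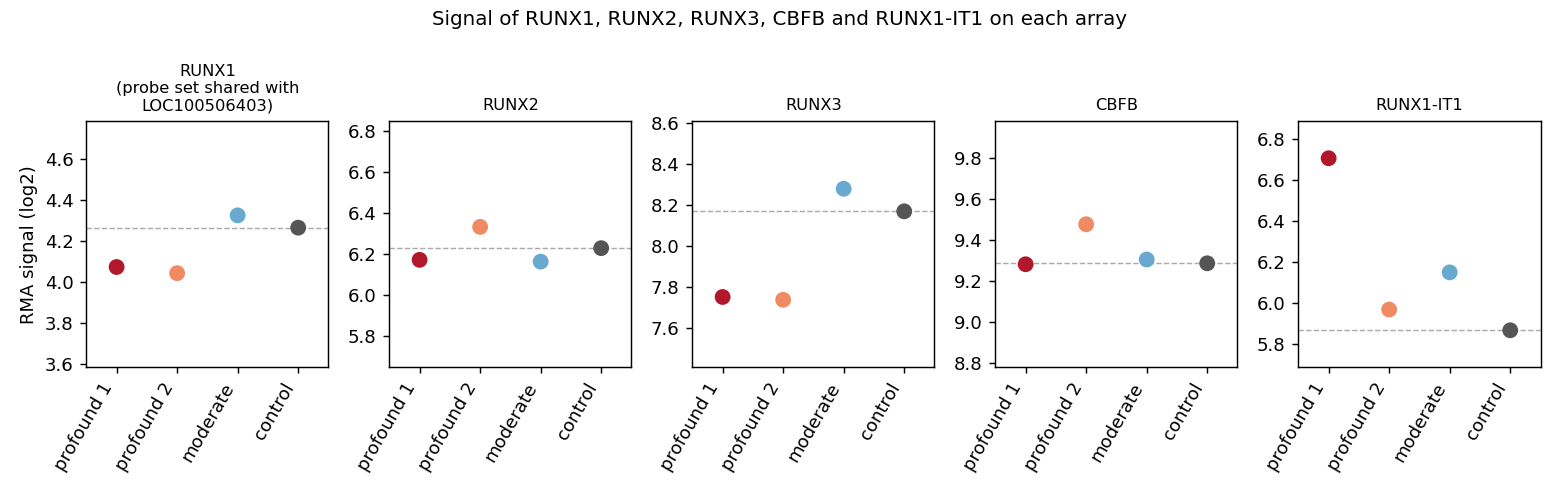
RMA signal (log2, y axis) of RUNX1, RUNX2, RUNX3, CBFB and RUNX1-IT1 on the 4 arrays (x axis), with 1 point per array, no error bars because each hairpin had 1 array, a dashed line at the control value, and the same span of signal in every panel. RUNX3 is 0.42 and 0.43 below control in profound 1 and profound 2, and RUNX1-IT1 is 0.84 above it in profound 1.

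Few bright genes were this low in both arrays labelled profound. Over all genes examined, 162 of 13243 (1.22%) were at least 0.42 log2 units below control in both, a cut set by RUNX3 itself. In the brightest of the 6 level classes, which holds RUNX3 and CBFB, 6 of 2207 genes were this low, RUNX3 included. The other 5, named after their values were seen, are UHRF1, a reader of methylated DNA in replicating cells (-0.75 and -0.61), MMP2 (-0.59 and -0.68) and MMP14 (-0.50 and -0.46), both matrix metalloproteinases, NRIP1, a nuclear receptor corepressor (-0.49 and -0.57), and GPR183, an oxysterol receptor of leukocytes (-0.83 and -0.46). Both differences use the same control array and are not independent. A reading with the array labelled moderate in place of control puts RUNX3 at -0.53 log2 units in profound 1 and -0.54 in profound 2. These are signals 1.44-fold and 1.46-fold lower. Both differences share the moderate array, so they are not independent either. Moderate was the highest array for RUNX3 (8.28, against 8.17 in control), so differences larger than those from control were bound to follow. In that reading 105 of all 13243 genes examined (0.793%) were as low in both. In the brightest class it was 4 of the 2207, RUNX3 included. The others in that class were MMP2 (7.42 and 7.33, against 8.34 in moderate), SOX4, a transcription factor of progenitor cells (differences of -0.70 and -0.70), and ALOX5AP, the activating protein of leukotriene synthesis (-0.62 and -0.79).

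**Figure D2:**
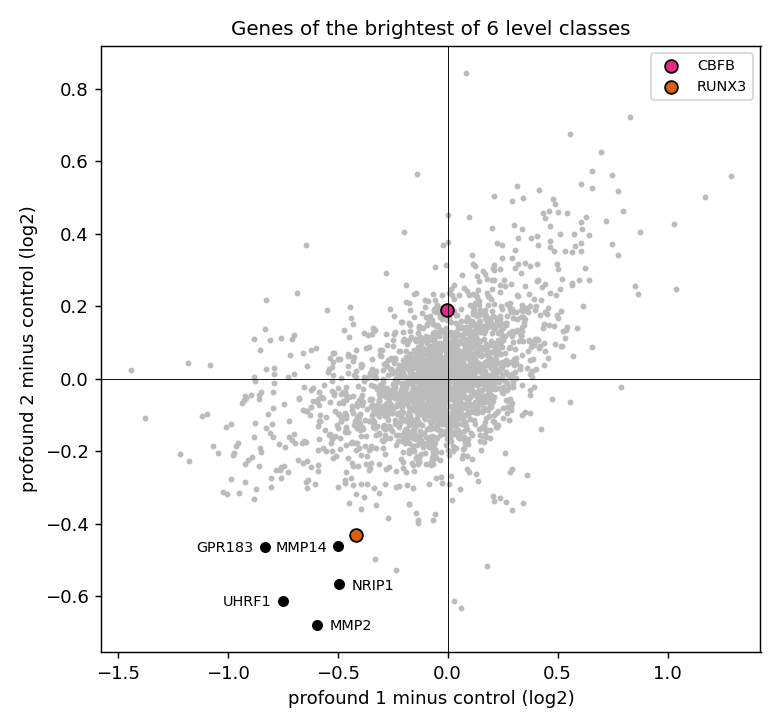
Difference from control (log2) in profound 1 (x axis) and profound 2 (y axis) of the 2207 genes in the brightest level class, 1 point per gene, both axes sharing the control array. RUNX3 (orange) lies at -0.42 and -0.43 beside 5 other labelled genes (black) that were as low in both, and CBFB (pink) lies at 0.00 and 0.19.

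No member reached the size of 1.5-fold in any array. The shares of all genes examined that did, in either direction, were 6.96% in profound 1, 2.65% in profound 2 and 1.61% in the array labelled moderate. In both arrays labelled profound with the same sign it was 0.793%, with 54 genes higher and 51 lower. A count of 0 of 4 members is near these background shares.

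RUNX2, the bone-forming member, read 6.17 in the array labelled profound 1, 6.33 in profound 2 and 6.16 in moderate, against 6.23 in control. The 4 values overlap within a range of 0.17 log2 units, and 16.9% of the genes examined had a range as small or smaller. Relative to control RUNX2 was at -0.06, 0.10 and -0.07 log2 units, with spreads of 0.27, 0.18 and 0.16. Of the skeletal genes that RUNX2 controls 7 were measured on probe sets of their own, and 3 of these exceeded the table median on any array, the bone transcription factor gene SP7 (3.38, 3.15 and 3.44 in profound 1, profound 2 and moderate, against 3.30 in control), ALPL (3.88, 3.57 and 3.41, against 3.89) and COL1A1 (3.58, 3.39 and 3.53, against 3.62).

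CBFB, whose protein stabilises all RUNX proteins on DNA, read 9.28 in the array labelled profound 1, 9.48 in profound 2 and 9.30 in moderate, against 9.29 in control. Profound 2 alone stood off the other arrays, which lay within 0.02 log2 units of control. Its difference from control was 0.19 log2 units or 1.14-fold, 1.51 times the spread of 0.13. At least as far above control were 17.2% of all genes examined and 8.25% of the genes in this level class. Between both arrays labelled profound, profound 1 minus profound 2, the differences were -0.20 log2 units for CBFB (spread 0.21) and -0.16 for RUNX2 (spread 0.25).

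The free-text descriptions of 2 arrays conflict with their titles. The array titled profound 1 is described as a RUNX2 knockdown and that titled profound 2 as a RUNX3 knockdown, whereas title and genotype name RUNX1 for both. RUNX2 differed from control by -0.06 log2 units in profound 1, where its spread was 0.27. RUNX3 was lower by nearly the same amount in both arrays, although 1 of them carries its name. The groups follow the titles.

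**Figure D3:**
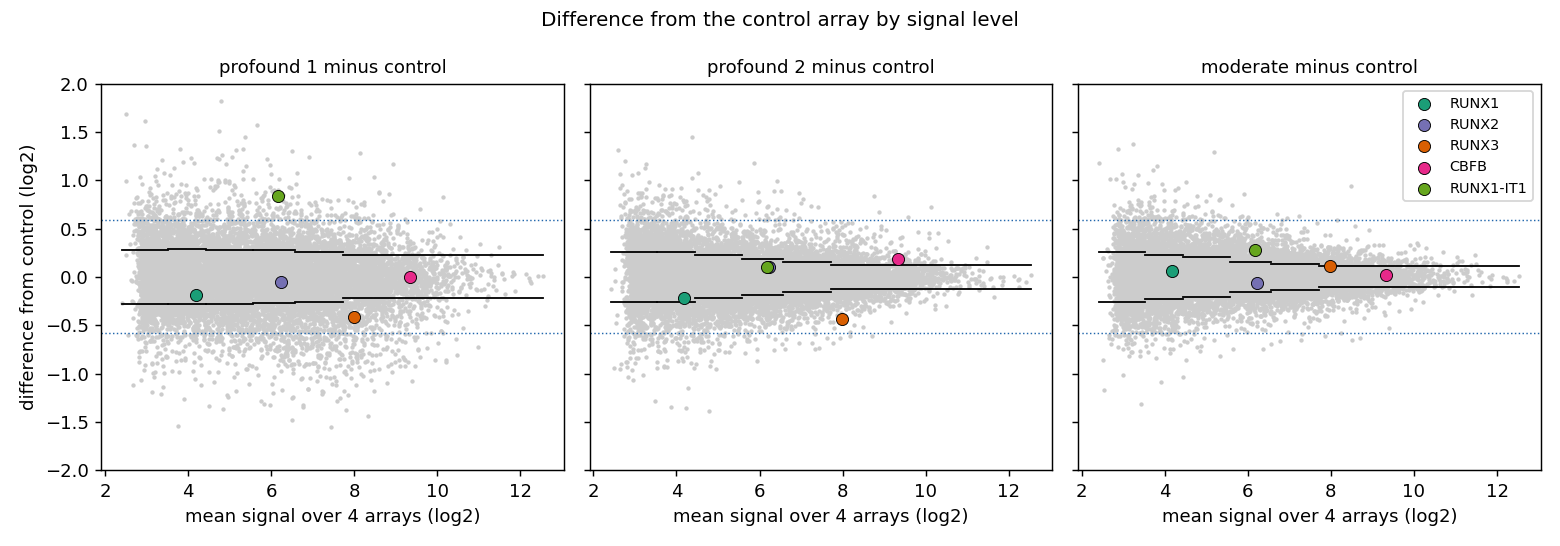
Difference from control (log2, y axis) against mean signal over the 4 arrays (log2, x axis) for 13243 genes in profound 1, profound 2 and moderate, with 1 grey point per gene and the members and RUNX1-IT1 in colour. Black steps mark 1 robust SD either side of 0 in each of 6 level classes and dotted lines mark 1.5-fold. RUNX3 lies outside the steps on the lower side in profound 1 and profound 2, and RUNX1 lies inside them in all 3 panels.

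A second transcript of the RUNX1 locus has a probe set of its own. RUNX1-IT1 is a long non-coding RNA that lies within the RUNX1 gene in the RefSeq table. It read 6.71 in the array labelled profound 1, 5.97 in profound 2 and 6.15 in moderate, against 5.87 in control. Control was the lowest and profound 1 the highest by 0.56 log2 units over the next array. The differences from control were 0.84 log2 units (1.79-fold, spread 0.27), 0.10 (spread 0.18) and 0.28 (spread 0.16). In profound 1, 0.725% of the genes examined were as far above control. RUNX1-IT1 and RUNX1 thus differed from control in opposite directions in both arrays labelled profound, although of these differences that of RUNX1-IT1 in profound 1 alone exceeded its spread. Which strand the array's probes read is not given in the sources used here.

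The protein-coding genes next to the members were read beside them. Their differences were not set against a spread. CLIC4, which lies beside RUNX3, read 8.09, 8.32 and 8.17 in profound 1, profound 2 and moderate, against 8.03 in control. It was above control by 0.06, 0.29 and 0.15 log2 units, so only slightly in profound 1. SYF2, on the other side of RUNX3, differed from control by 0.48, -0.05 and 0.00 log2 units. SETD4, beside RUNX1, read 4.34, 4.35 and 4.38, against 4.37 in control. SUPT3H, which overlaps RUNX2, read 5.10, 5.15 and 5.22, against 5.20, and CDC5L, beside RUNX2, differed from control by -0.21, -0.02 and -0.06 log2 units. PHAF1, beside CBFB, was above control by 0.45, 0.18 and 0.13 log2 units. The other nearest genes, CLIC6 beside RUNX1, CLIC5 beside RUNX2 and CES4A beside CBFB, were below the filter on dim genes.

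The genes with the most similar pattern were found by the Euclidean distance between mean-centred log2 profiles over the 4 arrays. Nearest to RUNX3 was ZNF829, a zinc finger gene (distance 0.0084 log2 units), followed by DUSP6, a phosphatase that restrains ERK kinases (0.024), ZNF93, another zinc finger gene (0.032), and TCF4, a basic helix-loop-helix factor of plasmacytoid dendritic cells (0.041). DUSP6 read 7.21 in profound 1, 7.21 in profound 2 and 7.77 in moderate, against 7.63 in control, and TCF4 read 6.76, 6.78 and 7.30, against 7.15. The likeness of these profiles to RUNX3 is what chose them. Nearest to RUNX1 were INF2, an actin-regulating formin gene (0.012), PODXL2 (0.026), QPCTL (0.029) and PFKP, a phosphofructokinase gene (0.030). Among 13243 genes and 4 arrays close profiles are easily found, and with cyclic loess scaling 1 of the 4 named for RUNX1 remained among its 4 nearest.

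RUNX factors act with other DNA-binding proteins at blood cell enhancers. Of 19 such partner genes examined 1 passed 1.5-fold in both arrays labelled profound, being lower, against 0.793% of all genes. Their medians were 0.04 and -0.03 log2 units in profound 1 and profound 2 and 0.00 in moderate. Over all genes these medians were within 0.01 of 0. The 1 gene was GATA2, a factor of stem and mast cells, at 2.54 and 2.27 in profound 1 and profound 2 and 3.15 in moderate, against 3.15 in control. GATA2 did not reach the median of the table in profound 1 or profound 2, so these are differences of a dim probe set. It passed the filter on dim genes only through moderate and control, so its count as lower is tied to that filter. The comparison with 0.793% is therefore no support for a shift of the partner genes. ETS1, a dim factor gene that passed the filter on dim genes only through profound 2, differed from control by 0.05, 0.53 and 0.00. Its difference in profound 2 is thus tied to that filter. LYL1, a stem cell factor of the same complex, was above control by 0.58 log2 units in profound 1, just under 1.5-fold, and by 0.15 in profound 2. SPI1, the master regulator of myeloid cells, read 8.65, 8.61 and 8.58 in profound 1, profound 2 and moderate, against 8.65 in control. CEBPA, a granulocyte and monocyte factor, read 8.98, 8.88 and 8.89, against 8.91, and the progenitor factor gene MYB read 9.50, 9.28 and 9.45, against 9.35. GFI1B differed from control by -0.21, -0.13 and -0.12 log2 units, CEBPB by -0.01, 0.11 and -0.12, and ERG, a dim ETS factor gene, by 0.42, 0.02 and 0.16.

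RUNX proteins recruit corepressors and coactivators and are modified by kinases and methyltransferases. Of 26 such genes examined, 2 passed 1.5-fold in profound 1, both lower, 1 passed in profound 2, being higher, and none passed in both or in the array labelled moderate. These counts are near the shares over all genes, 6.96% in profound 1 and 2.65% in profound 2. The medians were -0.06, -0.04 and 0.00 log2 units in profound 1, profound 2 and moderate. PIM1, a kinase reported to act on RUNX proteins, read 6.76 in profound 1, 7.37 in profound 2 and 7.40 in moderate, against 7.65 in control, and was thus lowest in profound 1. CBFA2T3, a corepressor of the ETO family, read 6.28, 6.78 and 6.86, against 6.91, whereas its relative CBFA2T2 read 5.53, 5.43 and 5.69, against 5.42. RUNX1T1, the ETO gene itself, stayed under the table median on every array, at 2.85, 2.96 and 2.58 in profound 1, profound 2 and moderate and 3.02 in control.

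The TLE genes encode the Groucho corepressors that bind the carboxyl end of RUNX proteins, and TLE5 encodes a short form. Of 5 measured, 3 were above control in both arrays labelled profound, as were 32.1% of all genes examined. TLE2 read 4.26 in profound 1, 4.53 in profound 2 and 4.04 in moderate, against 3.93 in control, and its difference in profound 2 (0.60 log2 units) was the 1 past 1.5-fold. TLE5 read 7.37, 7.25 and 7.32, against 6.95, so that control was the lowest array. TLE4 was above control by 0.37, 0.26 and 0.11 log2 units, TLE3 differed by -0.25, -0.13 and -0.03, and TLE1 by 0.04, -0.28 and -0.30. SRC, a kinase that modifies RUNX proteins, differed from control by -0.18, -0.19 and -0.35 log2 units.

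Ubiquitin ligases linked to the turnover of RUNX proteins numbered 9, of which 2 passed 1.5-fold in profound 1, both lower, and none in the other arrays. The shares over all genes were 6.96% in profound 1, 2.65% in profound 2 and 1.61% in moderate. SKP2, a substrate receptor that also drives entry into S phase, read 8.29 in profound 1, 9.28 in profound 2 and 9.14 in moderate, against 9.17 in control. CDC20, the activator of the anaphase-promoting complex in mitosis, read 8.37, 8.92 and 8.92, against 8.98. Of the proliferation genes read beside them, MKI67 differed from control by -0.88 log2 units in profound 1, -0.33 in profound 2 and -0.26 in moderate, CCNB2 by -0.85, -0.20 and -0.06, and CCNE2 by -1.55, -0.03 and -0.52. All 3 were lowest in profound 1, as were SKP2 and CDC20, whereas in profound 2 SKP2 was at 0.11. Their part in the SKP2 and CDC20 values was not tested. MDM2, a ligase of p53, differed from control by -0.21 log2 units in profound 1, -0.22 in profound 2 and 0.02 in moderate. ITCH was above control by 0.33, 0.17 and 0.28, and FZR1, which replaces CDC20 on that complex in late mitosis, was at -0.31, -0.13 and -0.17.

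Genes known as direct or functional targets of RUNX factors in blood cells were examined next. Of 18 examined none passed 1.5-fold in any of the 3 arrays, which is near the shares over all genes (6.96%, 2.65% and 1.61%). The medians were -0.02, -0.03 and 0.04 log2 units in profound 1, profound 2 and moderate. CSF1R, the M-CSF receptor gene with a RUNX-dependent enhancer, read 7.39 in profound 1, 7.65 in profound 2 and 7.79 in moderate, against 7.50 in control. ELANE, the neutrophil elastase gene, read 10.72, 10.68 and 10.45, against 10.31. NFE2, a megakaryocytic factor, read 3.57, 3.33 and 3.99, against 3.91, and came closest to 1.5-fold lower, at -0.58 in profound 2. The chemokine gene CCL3 passed the filter on dim genes only through control, at 3.17. It differed from control by -0.50, -0.33 and -0.54 log2 units, and these signs are tied to that filter. MYL9, a myosin light chain gene of platelets, differed from control by 0.00, 0.14 and 0.51.

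Of the p53-linked genes 9 were examined and none passed 1.5-fold, again near the shares of 6.96%, 2.65% and 1.61% over all genes, with medians of -0.09, -0.09 and 0.00 log2 units in profound 1, profound 2 and moderate. FAS, a death receptor gene, read 4.41 in profound 1, 4.61 in profound 2 and 5.10 in moderate, against 4.98 in control, and BAX, a pore-forming apoptosis gene, read 7.42, 7.66 and 7.94, against 7.87. Both were lower in the arrays labelled profound than in the other 2, as were 19.8% of all genes examined. BCL11A, a zinc finger repressor, differed from control by -0.28, 0.17 and -0.15 log2 units, TRIM24, a p53 ligase, by -0.01, -0.09 and 0.00, BBC3 by -0.09, -0.07 and -0.33, and TP53I3 by 0.04, 0.03 and 0.24.

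**Figure D4:**
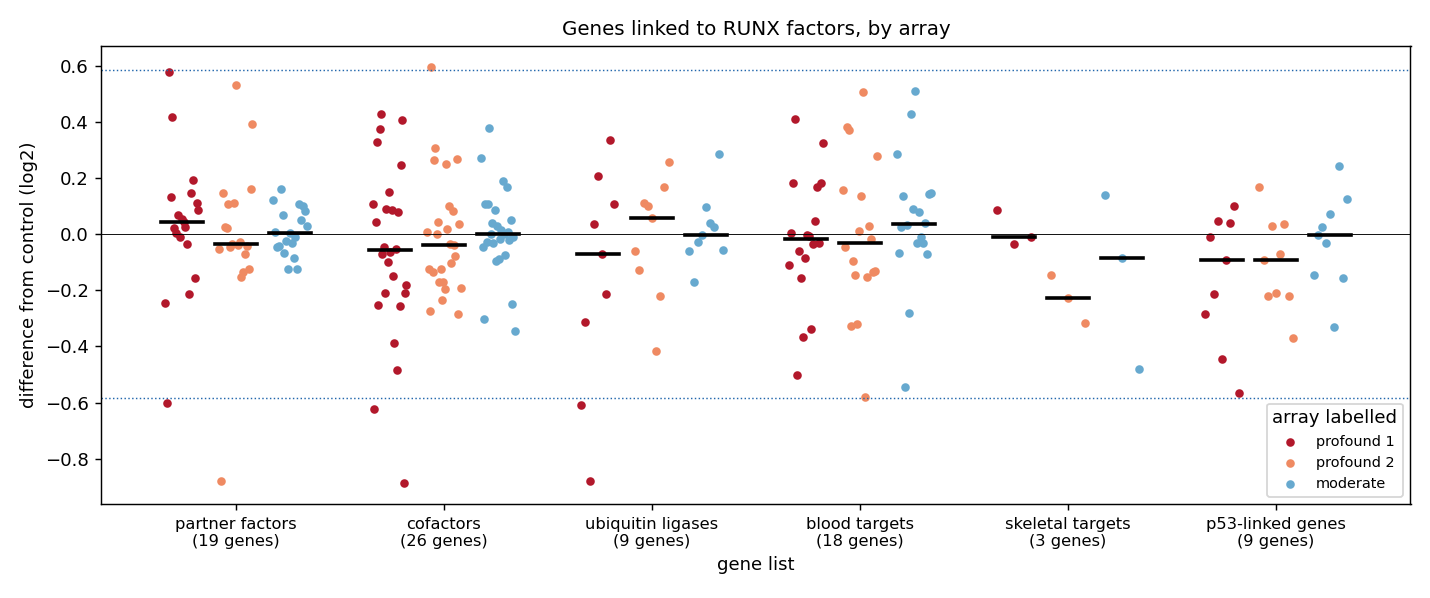
Difference from control (log2, y axis) of the genes examined in 6 lists linked to RUNX factors (x axis), 1 point per gene, coloured by array, with a black bar at each median and dotted lines at 1.5-fold. All medians lie between -0.23 and 0.06, and the points past 1.5-fold are GATA2, PIM1, CBFA2T3, SKP2 and CDC20 on the lower side and TLE2 on the higher.

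Genes were also grouped by the copies of the RUNX core sequence in their promoter window, with no test of the differences. Those with 1 copy of TGTGGT numbered 1273, with median differences from control of 0.016 log2 units in profound 1, -0.0047 in profound 2 and 0.014 in moderate, while those with 2 copies numbered 109, with medians of -0.0042, -0.013 and 0.032. Genes with 3 or more copies numbered 11, with medians of 0.013, -0.12 and 0.088. Genes with no copy numbered 8946, with medians of -0.0059, -0.0030 and 0.0057. In both arrays labelled profound, 6 genes with 1 copy were 1.5-fold higher and 2 lower, or 0.471% and 0.157%, and 0 genes with 2 or more copies were either. Among genes with no copy both shares were 0.268%. Over all genes examined, 54 were higher and 51 lower, or 0.793% in either direction. The counts in these groups, 0 included, are near that share. RUNX2 and RUNX3, which share the tandem pair, differed from control by -0.06 and -0.42 log2 units in profound 1 and by 0.10 and -0.43 in profound 2.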

How the data were processed

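The deposited table holds log2 RMA signals for 53617 probe sets on 4 arrays, made by the authors by RMA. Per the submitters' processing notes the software was Affymetrix Expression Console (version 1.3.1) together with Transcriptome Analysis Console (version 1.0). The build, like the settings, is not given in the sources used here. RMA compresses the differences of dim probe sets, and its quantile step hides a change in total RNA per cell.

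Groups follow the titles. Platform annotation gives 1 symbol to 23871 probe sets, several to 1842 and none to 27904, and 88 symbols were updated by Entrez ID to RefSeq (GRCh38.p14). Probe sets with several symbols were not named, RUNX1 excepted. The probe set with the highest mean stood for a gene. Small RNAs, predicted loci, long intergenic and antisense RNAs and immune receptor segments were dropped by symbol, and the filter on dim genes left 13243 genes, 12383 of them protein coding. Calculations used Python 3.11.15, and cyclic loess used limma 3.58.1. The 1.5-fold rule was checked on simulated arrays with known changes. The simulated noise was smaller than the spread over all genes examined in each comparison with control. How often the rule calls unchanged genes at the real spreads was therefore not checked.

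Named genes are every transcript of the member loci, the 4 genes nearest RUNX1 and RUNX3, fixed names such as SPI1, up to 3 genes per list in both arrays labelled profound and 2 in moderate. ETS1, SKP2, CDC20, TLE1, TLE3 and TLE4 were named outside these rules. The members and lists were chosen with earlier results of these data known. Neighbouring genes, promoter motifs, the genes MKI67, CCNB2 and CCNE2 and the pair of profound arrays were added after seeing the data.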

Additional observations from a re-analysis of the deposited data

How the results depend on the processing

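No paired analysis was possible because each group has 1 array, and for the same reason no array could be left out of a group. The 20 differences of the 4 members were recomputed with cyclic loess, with median centring and after subtracting the median of the 500 genes nearest in level, and the largest shift was 0.05 log2 units, below the spread in all 60 values. RUNX3 stayed between -0.42 and -0.41 in profound 1 and between -0.43 and -0.42 in profound 2 against control. The partner factors lost their 1 gene in both arrays labelled profound (GATA2) under filters that ask for a mean signal above the median or the 75th percentile of the table, leaving 0 by construction because GATA2 is dim. At a threshold of 0.32 log2 units instead of 0.58, counts in both arrays labelled profound became 1 for cofactors, 4 for blood targets and 1 for p53-linked genes, from 0 each. In the array labelled moderate they became 2 for cofactors, 3 for blood targets, 1 for skeletal targets and 1 for p53-linked genes, also from 0. The share of all genes at this looser threshold is not given here, so these counts cannot be set against a background. The blood targets counted include CCL3, which passed the filter on dim genes only through control. No skeletal gene was left above the 75th percentile, so no median could be given there. Of the 4 genes nearest RUNX1, 1 stayed with cyclic loess and 1 over the 3 arrays of RUNX1 hairpins, and 2 of those nearest RUNX3 stayed over these 3 arrays. RUNX1 is the dimmest of the 4 members, in the second dimmest of 6 classes, and its probe set is shared with another locus. How far either limits its reading was not tested.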
